A study of Mus musculus with 8 samples.

Results

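The cytosolic ribosomal protein genes were examined in sorted mouse eosinophils, in 8 CEL-Seq libraries from a series on a mouse model of asthma. Members were the protein-coding genes whose symbols follow the Rpl or Rps number pattern, with Rpsa, Rplp0, Rplp1 and Rplp2 and without pseudogenes. The rule gave 83 of the 54446 genes in the deposited tables, 51 of the large (60S) and 32 of the small (40S) subunit. They lie on 19 chromosomes, 4 of them on the X. The libraries fall into 3 groups of C57BL/6 eosinophils: resident (n = 4, numbered 3 to 6), Siglec-Fint/CD101- (n = 2, numbered 1 and 2) and SiglecFhi/CD101+ (n = 2, numbered 1 and 2). Siglec-F is a surface lectin used to identify mouse eosinophils, and CD101 is a surface glycoprotein used to separate eosinophil subsets. The series title concerns resident eosinophils of the lung and IL-5. The sample labels give no treatment, age, sex, tissue or animal for any library, and do not say whether cells of several animals were pooled. Replicates may therefore be technical, and the spread behind each p-value is that between libraries, no more.

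Each cytosolic ribosome holds 1 copy of nearly all of these proteins around its ribosomal RNAs, with the P1 and P2 stalk proteins as the exception, and cells make them in matched amounts. Their mRNAs are among the most abundant in growing cells and start with a C followed by a run of pyrimidines, the 5′ terminal oligopyrimidine (TOP) motif. Through this motif the mTORC1 kinase, acting with the mRNA-binding protein Larp1, controls how fully the mRNAs are translated. Eosinophils are short-lived granulocytes that stop dividing before they leave the bone marrow and carry most of their effector proteins preformed in granules.

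The start sites of 8 members are shown because these genes had the smallest p-values of a comparison, or form the pairs of parent gene and paralog described later. Each window holds 15 bases before the RefSeq start and the first 15 transcribed bases, 5′ to 3′ on the gene's strand, and capitals mark runs of at least 5 C or T.
Rplp2: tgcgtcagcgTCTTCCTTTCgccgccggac
Rpl37: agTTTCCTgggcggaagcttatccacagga
Rpl4: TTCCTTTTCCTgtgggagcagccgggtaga
Rpsa: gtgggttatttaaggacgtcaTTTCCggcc
Rps27: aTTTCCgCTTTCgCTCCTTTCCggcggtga
Rps27l: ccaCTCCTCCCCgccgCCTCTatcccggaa
Rpl22: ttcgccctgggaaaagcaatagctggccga
Rpl22l1: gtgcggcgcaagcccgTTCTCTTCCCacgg

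On GRCm38.p6 these windows lie at chr7:141447636-141447665 (Rplp2), chr15:5116598-5116627 (Rpl37), chr9:64173372-64173401 (Rpl4), chr9:120127751-120127780 (Rpsa), chr9:66946071-66946100 (Rps27l), chr4:152325711-152325740 (Rpl22) and chr3:28805493-28805522 (Rpl22l1) on the plus strand, and at chr3:90213634-90213663 (Rps27) on the minus strand. A promoter was found in the RefSeq table for 63 of the 83 members. A run of at least 8 C or T within 25 bases of the start was present in 30 of these 63 (47.6%) and in 19.4% of the 27025 starts in the table. The letters CTTTCC, themselves a pyrimidine run, stood within 25 bases of the start in 10 members (15.9%) and in 2.42% of all starts. CGGAAG or its reverse complement CTTCCG, the core that ETS-family factors recognise, occurred within the window from 250 bases before to 50 after the start in 42 members (66.7%) and in 17.2% of all. TATAAA between 40 and 15 bases before the start was found in 1 member (1.59%) and in 2.22% of all. The longest pyrimidine run within 25 bases of the start was 10 bases in Rplp2, 14 in Rpl4, 10 in Rpl22l1, 9 in both Rps27 and Rps27l, 6 in Rpl37, 5 in Rpsa and 4 in Rpl22. Annotated starts can lie a few bases away from the start used in these cells, so the runs describe the printed letters only.

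Resident libraries held 5600610 to 11583550 counts, and the subset libraries 1513517 to 3109428. Genes of the mitochondrial genome took 38.6 to 61.8% of counts in resident and 69.9 to 83.9% in subset libraries. Outside these genes 2137819 to 5296468 counts remained per resident library and 444902 to 552121 per subset library. Levels are given as CPM, counts per 1000000 of the library total after scaling by the trimmed mean of M values (TMM). Defining markers of the labelled cells were uneven. The summed level of 12 eosinophil markers was 187 to 453 CPM in resident and 219 to 449 in subset libraries. Prg2, a major granule protein, was at 4.93 to 15.8 CPM in resident libraries, 0.724 and 1.85 in the Siglec-Fint/CD101- pair and 38.5 and 233.7 in the SiglecFhi/CD101+ pair. Epx, the eosinophil peroxidase, had 25 counts in resident 5 and 0 in the other 7 libraries. Siglecf was at 4.26 to 43.7 CPM in resident libraries, at 0 in both Siglec-Fint/CD101- libraries and at 10.02 and 26.7 in the SiglecFhi/CD101+ pair. Cd101 was at 4.19 to 33.4 CPM in resident libraries and had 2 counts and 1 count in those labelled SiglecFhi/CD101+, so its RNA does not follow that label. Groups were taken from the sample titles, and whether each title belongs to its counts was not tested. Every comparison below depends on that link. Prg3 among 12 eosinophil markers and Igkc among 9 B and plasma cell markers had no count. Summed markers of 6 alveolar epithelial genes ranged from 591 to 6190 CPM in resident libraries and from 2580 to 3690 in subset libraries, and 5 red cell genes from 983 to 9740 and from 2520 to 7640. Resident libraries were also at 553 to 8700 CPM for 6 airway secretory genes (1760 to 4940 in subsets), 175 to 1010 for 9 endothelial and fibroblast genes (679 to 966), 116 to 482 for 8 neutrophil genes (257 to 1520), 188 to 440.0 for 8 dendritic cell genes (106 to 222) and 18.8 to 38.3 for 10 T and innate lymphoid genes (86.8 to 196). The share these other cells had in the values below was not tested. In such bulk libraries fewer cells of a type and less RNA per cell cannot be told apart.

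Ribosomal protein mRNAs took a smaller share of all counts in both SiglecFhi/CD101+ libraries and Siglec-Fint/CD101- 2 than in every resident library. Large and small subunit genes kept nearly the same proportion in every library. The 83 members held 3.70, 5.32, 5.84 and 5.502% of all counts in resident 3 to 6 (mean 5.09% ± 0.953, SD, n = 4). They held 4.00 and 1.58% in Siglec-Fint/CD101- 1 and 2 (2.79% ± 1.71, SD, n = 2) and 1.67 and 2.21% in SiglecFhi/CD101+ 1 and 2 (1.94% ± 0.383, SD, n = 2). Both SiglecFhi/CD101+ libraries lay below every resident library, and Siglec-Fint/CD101- 1 overlapped the resident range. Siglec-Fint/CD101- 2, at 1.58%, lay below all other libraries. The mitochondrial share moved with this value. Among counts outside the mitochondrial genome the members took 9.69, 12.4, 9.51 and 11.5% in resident libraries (10.8% ± 1.40, SD, n = 4). On that base the Siglec-Fint/CD101- libraries stood at 13.3 and 9.79% (11.5% ± 2.46, SD, n = 2) and the SiglecFhi/CD101+ libraries at 9.38 and 7.51% (8.44% ± 1.32, SD, n = 2). Both SiglecFhi/CD101+ values were still below all resident libraries, and here also below both Siglec-Fint/CD101- libraries. The higher of them was close to resident 5, and the Siglec-Fint/CD101- values overlapped the resident range.

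**Figure D1:**
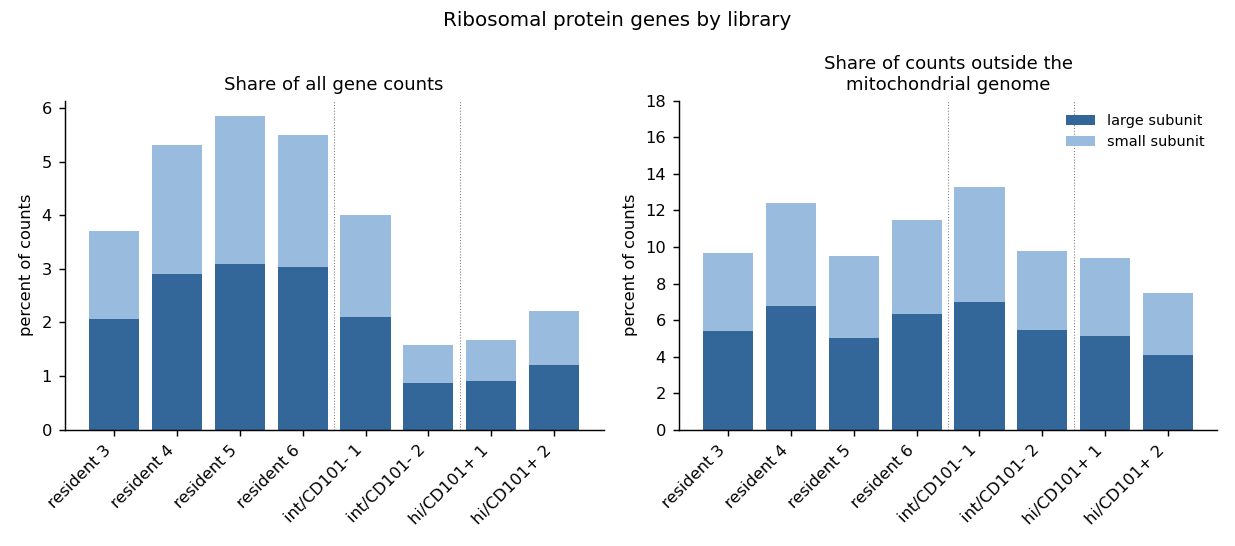
Stacked bars give the percent of counts in large (dark) and small (light) subunit genes for each library, over all gene counts (left) and over counts outside the mitochondrial genome (right); int/CD101- stands for Siglec-Fint/CD101- and hi/CD101+ for SiglecFhi/CD101+. The SiglecFhi/CD101+ libraries are at 1.67 and 2.21% on the left and at 9.38 and 7.51% on the right, where the resident libraries are at 9.51 to 12.4%.

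Large-subunit genes gave 1.27, 1.21, 1.13 and 1.23 counts for each small-subunit count in resident 3 to 6. The ratio was 1.12 and 1.25 in the Siglec-Fint/CD101- pair and 1.21 and 1.19 in the SiglecFhi/CD101+ pair. All 4 subset values thus lay within or next to the resident range of 1.13 to 1.27, and the group means were 1.207, 1.184 and 1.204 in the same order. On the TMM scale the summed members reached 34440, 48170, 30930 and 40280 CPM in resident 3 to 6. The sums were 43870 and 29120 CPM in Siglec-Fint/CD101- 1 and 2 and 27310 and 20270 CPM in SiglecFhi/CD101+ 1 and 2. Again only the SiglecFhi/CD101+ pair lay wholly below the resident libraries.

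Of the 83 members 77 had counts, and all 77 (46 large, 31 small) passed the filter on low counts. Resident libraries each detected all 77, as did both SiglecFhi/CD101+ libraries, and each Siglec-Fint/CD101- library detected 76. Mean levels over the 8 libraries ran from 7.77 CPM (Rpl7l1) to 1969 CPM (Rpl4) among large-subunit genes, with a median of 277 CPM. Small-subunit genes ran from 20.8 CPM (Rps27l) to 1247 CPM (Rps15), with a median of 417 CPM. The 5 most abundant members of a library held 21.0 to 26.0% of its member counts, so no single gene carried the sum.

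Rpl4, Rpl21, Rpl23a and Rpl17 were among the large-subunit genes with the highest mean levels. Rpl4, which reaches into the wall of the peptide exit tunnel, stood at 1538, 3305, 1560 and 2969 CPM in resident 3 to 6, at 1816 and 1138 in the Siglec-Fint/CD101- pair and at 1945 and 1479 in the SiglecFhi/CD101+ pair. Its resident libraries differed among themselves by more than the group means did. Rpl21 was the steadiest member, with 1123, 1271, 1063 and 1204 CPM in resident, 1192 and 1147 in the Siglec-Fint/CD101- pair and 799 and 869.8 in the SiglecFhi/CD101+ pair, a highest-to-lowest ratio of 1.59 over the 8 libraries against a median of 2.70 over 76 members.

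The 5 most abundant small-subunit genes were Rps15, Rps9, Rps20, Rps23 and Rps7. Rps15, which lies near the decoding site, stood at 1573, 1553, 1275 and 1034 CPM in resident, 1807 and 1105 in the Siglec-Fint/CD101- pair and 727 and 898 in the SiglecFhi/CD101+ pair. Both SiglecFhi/CD101+ values were below all resident ones. Rps20 was at 850.3, 1403, 949 and 1076 CPM in resident, 1179 and 569 in the Siglec-Fint/CD101- pair and 1209 and 694 in the SiglecFhi/CD101+ pair, and its groups overlapped. Divided by coding length, the order changed: Rpl41, the shortest ribosomal protein gene, came first among large-subunit genes at 8410 CPM per kb of coding sequence, and Rpl4 came ninth at 1563. Rps15 stayed first among small-subunit genes at 2846 CPM per kb, with Rps20 next at 2753. CEL-Seq primes at the poly(A) tail and gives about 1 tag for a transcript of any length. The values per kb are therefore not an order of abundance, and levels elsewhere are given as CPM.

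**Figure D2:**
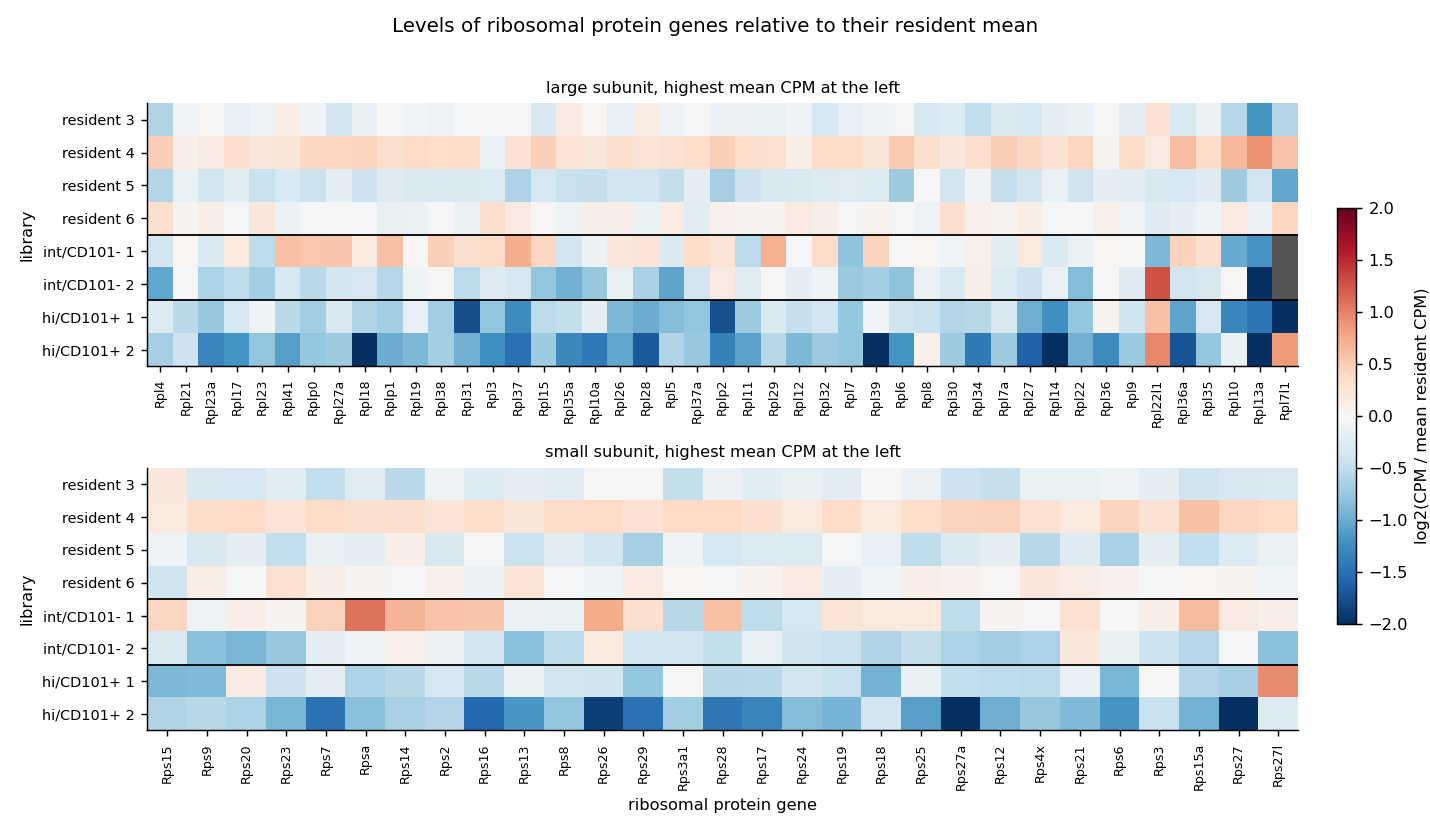
Each column is 1 of 74 of the 77 ribosomal protein genes with counts and each row a library; colour gives log2 of the CPM over the gene's mean resident CPM, values beyond 2 in size take the end colours, and dark grey marks 0 counts. Most columns are blue in the 2 SiglecFhi/CD101+ rows, while Rpl22l1 is red there and Rpl7l1 is grey in both Siglec-Fint/CD101- rows.

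The members kept their order of abundance between libraries more closely than other genes did. Spearman's rho of log2 CPM over the 77 members was 0.969 to 0.984 for pairs of resident libraries, 0.951 for the Siglec-Fint/CD101- pair and 0.892 for the SiglecFhi/CD101+ pair. Subset libraries against resident ones gave 0.914 to 0.961, and Siglec-Fint/CD101- against SiglecFhi/CD101+ libraries 0.890 to 0.917. Over all 11828 genes tested the same pairs gave 0.695 to 0.782, 0.426, 0.411, 0.421 to 0.554 and 0.384 to 0.401. The members are also far more abundant, with a median of the mean CPM of 334 against 7.93 over all genes tested, so counting noise differs between the sets. Restricted to genes with a mean of at least 100 CPM, the 67 members gave 0.953 to 0.976 between resident libraries and 0.875 to 0.942 between subset and resident libraries. The 404 other genes above that level gave 0.489 to 0.904 and 0.274 to 0.628. These correlations are descriptions over genes, which share their libraries and are not independent. The biological coefficient of variation of edgeR, its estimate of relative spread between replicates beyond counting noise, had a median of 0.557 in these 67 members and 0.622 in the 404 other abundant genes.

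**Figure D3:**
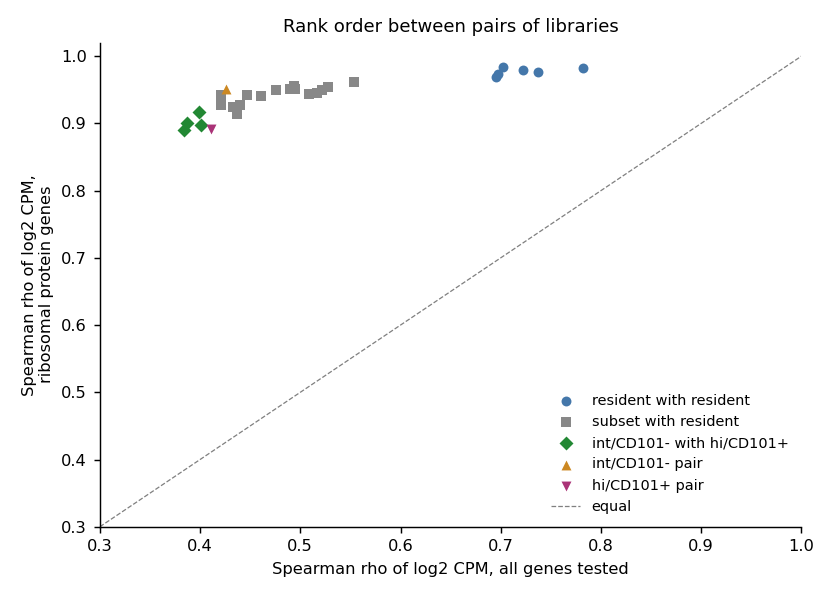
Each point is a pair of libraries, with Spearman's rho of log2 CPM over all 11828 genes tested on the horizontal axis and over the 77 ribosomal protein genes on the vertical axis. All pairs lie above the dashed line of equality, the members between 0.890 and 0.984.

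In SiglecFhi/CD101+ against resident libraries the members were lower as a body. Their median was close to that of all genes tested and below that of 404 other genes with a mean of at least 100 CPM. None of the 77 members passed an adjusted p of 0.05 in edgeR's quasi-likelihood test, in which 0.0254% of all genes tested did, and the smallest adjusted p was 0.203. DESeq2 also called 0 members beside 7.95% of all genes, and limma-voom 0 beside 0.0169%. At an unadjusted p under 0.05 edgeR gave 13 members lower and 0 higher (16.9%). Lower at that p were 13.1% of all genes tested and 16.6% of the 404 other abundant genes, against 19.4% of the 67 abundant members. The median log2 fold change was -0.71 over the members and -0.72 over all genes tested (-0.65 with genes at 0 in a group set at 3 counts over that group). Among genes with a mean of at least 100 CPM it was -0.72 over the 67 members and -0.34 over the 404 others, a difference that was not tested. The 404 others were set by that floor alone and were not matched to the members' levels. With RLE factors (relative log expression) the members' median was -0.25 and with library totals alone -1.40, and under the 5 scalings it differed from that of all genes by -0.07 to 0.06. That closeness rests on both SiglecFhi/CD101+ libraries: the members' median was above that of all genes by 2.15 without library 1 and by 1.48 without library 2, when more genes passed the filter. Large-subunit genes had a median of -0.73 and small-subunit genes of -0.70. The members lay close together: the distance between their quartiles was 0.41 on the log2 scale, against 3.93 over all genes tested and 1.17 over the 404 other abundant genes.

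Seen by library, both SiglecFhi/CD101+ values lay below all 4 resident values in 52 of 77 members (67.5%; 31 large, 21 small), which held for 27.4% of all genes tested and for 27.7% of the 404 other abundant genes. The count depended on the scaling: 13 members with RLE factors, 33 with upper-quartile factors, 40 with counts outside the mitochondrial genome and 72 with library totals alone. Under these the shares over all genes tested were 22.8, 25.1, 26.3 and 35.1%, so with RLE factors the members stood below the background. Only Rpl22l1 was higher in both SiglecFhi/CD101+ libraries than in all resident ones, where 6.78% of all genes tested were, and with library totals alone no member was.

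Rplp2 had the smallest p in this comparison; it encodes the acidic protein P2 of the stalk, where elongation factors dock. It stood at 275.4, 417, 190.1 and 317 CPM in resident, 357 and 339.8 in the Siglec-Fint/CD101- pair and 89.2 and 118 in the SiglecFhi/CD101+ pair. The SiglecFhi/CD101+ pair was the lowest and did not overlap the others. Its log2 fold change against resident was -1.54 ± 0.49 (SE), with an edgeR adjusted p of 0.203. Rpl37, a zinc-binding protein of the large subunit, came next at 504, 626, 334 and 579 CPM in resident, 841 and 406 in the Siglec-Fint/CD101- pair and 214 and 182 in the SiglecFhi/CD101+ pair. Its log2 fold change against resident was -1.37 ± 0.45, with an edgeR adjusted p of 0.214, and again the SiglecFhi/CD101+ pair lay below the other 6 libraries. Rpl14, picked out here after its values were seen, had 134, 189, 140.1 and 152 CPM in resident, 125 and 141 in the Siglec-Fint/CD101- pair and 65.4 and 27.9 in the SiglecFhi/CD101+ pair. The lowest fold change, a log2 of -2.36, was that of Rpl13a, a protein that can leave the ribosome to silence translation in myeloid cells. It rests on 18 counts in SiglecFhi/CD101+ 1 and 1 count in SiglecFhi/CD101+ 2.

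**Figure D4:**
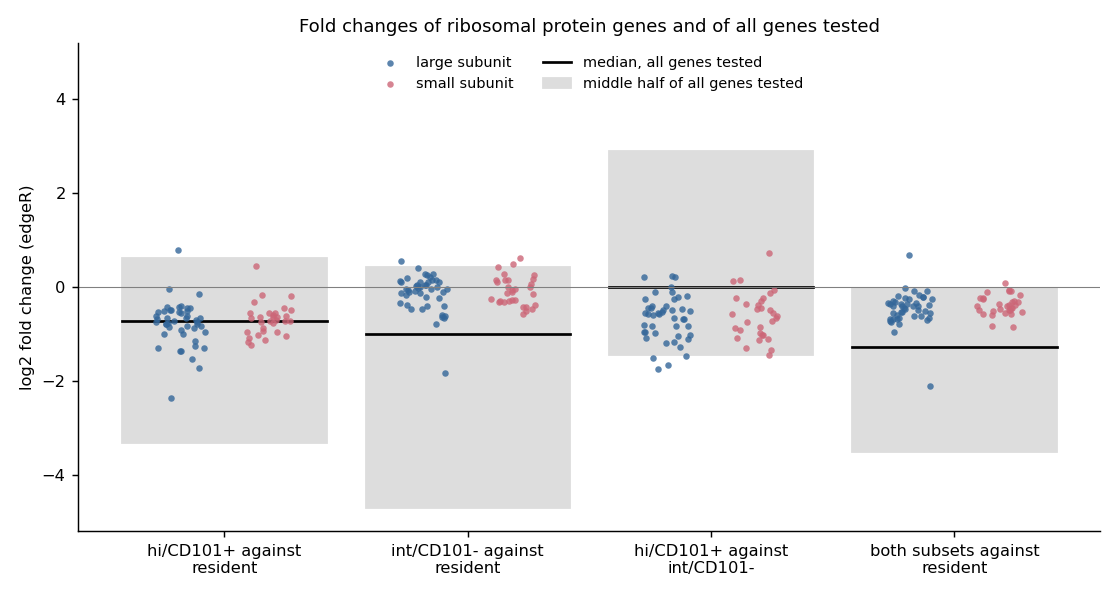
Points are edgeR log2 fold changes of large (blue) and small (red) subunit genes in 4 comparisons; grey boxes span the quartiles of all 11828 genes tested and black lines their medians, with int/CD101- for Siglec-Fint/CD101- and hi/CD101+ for SiglecFhi/CD101+. Rpl7l1 is left out of the 3 comparisons that use Siglec-Fint/CD101-, where it has 0 counts, and the members lie within a distance between quartiles of 0.30 to 0.62 in each comparison.

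In Siglec-Fint/CD101- against resident libraries the members stayed near 0 while the median gene was lower. No member passed in edgeR (0.0592% of all genes tested did; smallest adjusted p 0.288) and limma-voom called 0 (0.0169%). DESeq2 called 1, Rpl7l1, beside 6.23% of all genes. At an unadjusted p under 0.05 edgeR had 1 member lower (Rpl7l1) and 0 higher. Lower at that p were 13.8% of all genes tested and 10.6% of the 404 other abundant genes. Median log2 fold changes were -0.06 over the members and -0.997 over all genes tested, or -0.72 with genes at 0 in a group set at 3 counts. Over the 404 other abundant genes the median was -0.18, with a distance between quartiles of 1.19 against 0.43 for the members. The members' median depended on the scaling, at 0.32 with RLE factors and -0.87 with library totals alone, and was above that of all genes by 0.81 to 1.08 under each scaling. This distance was 2.86 without Siglec-Fint/CD101- 1, 4.55 without Siglec-Fint/CD101- 2 and 0.58 without resident 5. The members' median itself was -0.43 without Siglec-Fint/CD101- 1. Both Siglec-Fint/CD101- libraries lay below all resident libraries in 5 members (Rpl7, Rpl7l1, Rpl23, Rps24 and Rps27a, 6.49%) where 29.3% of all genes tested did, and above them in 1 (Rps21) where 4.46% did. With RLE factors 2 members (2.6%) were below, where 26.1% of all genes tested were, and 12 (15.6%) above, where 6.62% were.

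The members described next were chosen by rule as those with the smallest p in each direction, so their spread over both directions is not a result. Rps14, for example, had an unadjusted edgeR p of 0.277. Lower members such as Rpl7 (0.114) and Rpl23 (0.132) had smaller ones. Rpl4 had a log2 fold change of -0.67 ± 0.40 with an edgeR adjusted p of 0.386. Rpsa, the laminin receptor precursor that is also a head protein of the small subunit, had 711, 1042, 735 and 867 CPM in resident, 1788 and 787 in the Siglec-Fint/CD101- pair and 544 and 472 in the SiglecFhi/CD101+ pair. Its log2 fold change was 0.62 ± 0.37 (edgeR adjusted p = 0.392), and the height rested on Siglec-Fint/CD101- 1, without which it was -0.15. Rps14, a platform protein of the small subunit, was at 430.4, 785, 681 and 610.0 CPM in resident, 1005 and 669 in the Siglec-Fint/CD101- pair and 425 and 398 in the SiglecFhi/CD101+ pair, with a log2 fold change of 0.42 ± 0.37 (edgeR adjusted p = 0.564) that was 0.039 without Siglec-Fint/CD101- 1. The 2 Siglec-Fint/CD101- libraries differed from each other more than their mean differed from resident: the median member was higher by 0.63 on the log2 scale in library 1 than in library 2. Summed markers of 9 B and plasma cell genes were at 886 and 344 CPM in these 2 libraries, at 558 and 217 in the SiglecFhi/CD101+ pair and at 77.8 to 189 in resident libraries. Those of 9 macrophage genes were at 1120 and 356, at 278 and 384, and at 380.0 to 738. Their part in the members' levels was not tested.

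**Figure D5:**
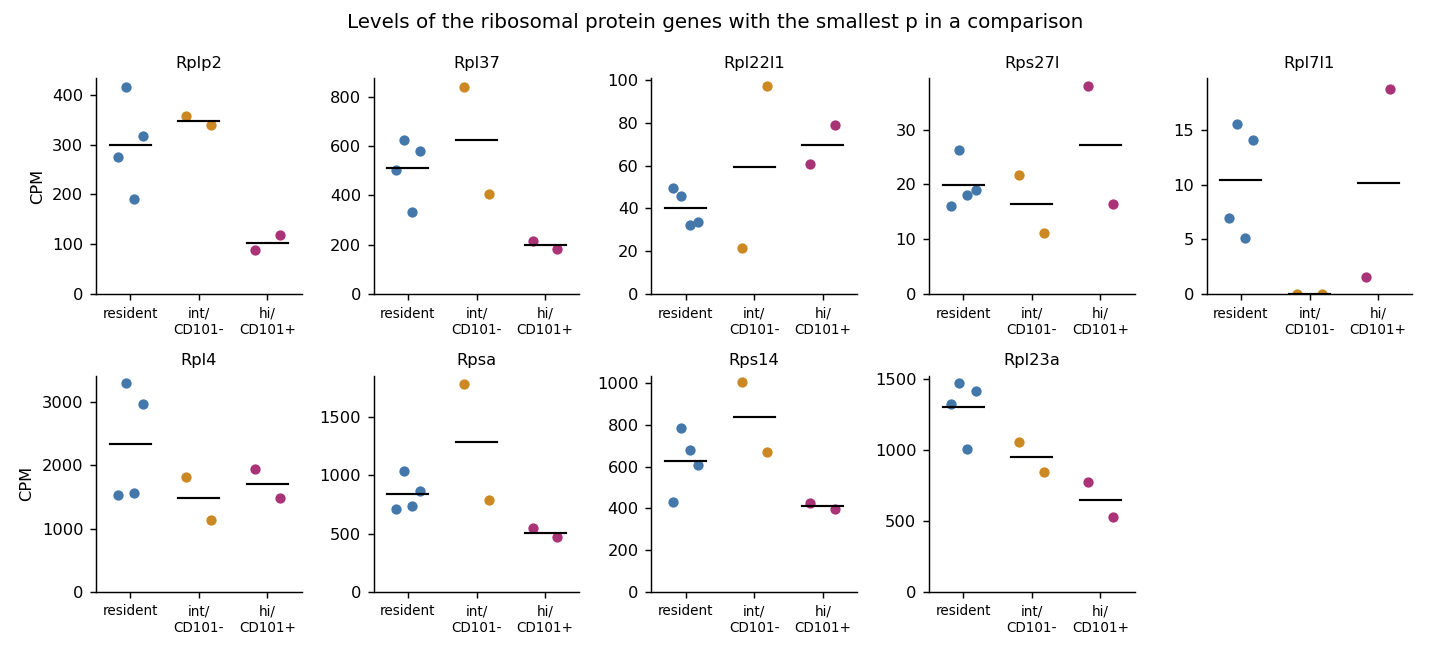
CPM by library for 9 ribosomal protein genes with the smallest p in a direction of some comparison; points are libraries, black lines are group means, every vertical axis starts at 0, and int/CD101- and hi/CD101+ stand for Siglec-Fint/CD101- and SiglecFhi/CD101+. Rplp2 and Rpl37 are lowest in both SiglecFhi/CD101+ libraries, and Rpl7l1 is at 0 in both Siglec-Fint/CD101- libraries.

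Between the subsets, members were lower in SiglecFhi/CD101+ than in Siglec-Fint/CD101- libraries, the median gene was level and the median of the 404 other abundant genes was -0.24. edgeR called 0 of 77 (0.00845% of all genes tested; smallest adjusted p 0.239), limma-voom 0 (0.00%) and DESeq2 1, Rpl7l1, beside 11.1% of all genes. At an unadjusted p under 0.05 edgeR had 14 members lower and 1 higher, with 7.96% of all genes tested lower at that p and 6.68% of the 404 other abundant genes. The median log2 fold change was -0.58 over the members and 0.00 over all genes tested (0.17 with genes at 0 in 1 group set at 3 counts and those with no group above that floor left out), and 70 of the 77 members were below 0. Large-subunit genes had a median of -0.57 and small-subunit genes of -0.62. Lowest were Rplp2 (log2 fold change -1.75 ± 0.54) and Rpl37 (-1.66 ± 0.50), both with an edgeR adjusted p of 0.239. Without Siglec-Fint/CD101- 2 the members' median was -0.95, and without SiglecFhi/CD101+ 1 it was -0.93. The other libraries moved it toward 0: it was -0.42 without Siglec-Fint/CD101- 1, -0.49 without SiglecFhi/CD101+ 2 and -0.485 to -0.478 without a resident library. This comparison and the 2 before it share libraries, so their values are not independent of each other.

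For the mean of both subsets against resident libraries, the members were lower by less than the median gene. edgeR called 0 of 77 (0.0254% of all genes tested; smallest adjusted p 0.158), DESeq2 0 (8.78%) and limma-voom 0 (0.0423%). At an unadjusted p under 0.05 edgeR had 3 members lower, among them Rpl23a and Rpl7l1, and 0 higher. Lower at that p were 21.0% of all genes tested and 18.6% of the 404 other abundant genes. Median log2 fold changes were -0.41 over the members, -1.28 over all genes tested (-0.74 with genes at 0 in a group set at 3 counts) and -0.27 over the 404 other abundant genes. With RLE factors the members' median was 0.012 and with library totals alone -1.20. All 4 subset libraries lay below all resident libraries in 3 members, Rpl7, Rps24 and Rps27a, where 12.0% of all genes tested did.

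Rpl23a, an exit-tunnel protein at which the signal recognition particle docks, had 1324, 1470, 1005 and 1415 CPM in resident, 1054 and 841 in the Siglec-Fint/CD101- pair and 774 and 524 in the SiglecFhi/CD101+ pair. Its log2 difference between the subsets' mean and resident was -0.73 ± 0.28 (edgeR adjusted p = 0.158). Its subset values overlapped the resident range through Siglec-Fint/CD101- 1. With library totals alone and no normalization factors, Rpl23a (adjusted p = 0.0378; 0.0378 to 0.701 over its alternatives) and Rps27a (adjusted p = 0.0442) were called lower by edgeR, 2 of 77 members where 6.54% of all genes tested were called.

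For Rpl22l1 and Rps27l the ratio of paralog to parent gene ranged more widely over subset than over resident libraries. Rpl22l1 can take the place of Rpl22 in the ribosome, and Rpl22 also binds RNA outside it. Rpl22l1 stood at 49.4, 45.8, 32.4 and 33.7 CPM in resident, 21.7 and 97.01 in the Siglec-Fint/CD101- pair and 60.7 and 78.9 in the SiglecFhi/CD101+ pair. Rpl22 stood at 126, 188, 107 and 139 CPM in resident, 127 and 76.6 in the Siglec-Fint/CD101- pair and 82.3 and 72.2 in the SiglecFhi/CD101+ pair. The paralog thus gave 39.1, 24.3, 30.4 and 24.2 counts per 100 counts of its parent in resident libraries, 17.0 and 127 in the Siglec-Fint/CD101- pair and 73.7 and 109 in the SiglecFhi/CD101+ pair. A ratio within a library does not depend on scaling, and here 3 of 4 subset libraries were above all resident ones. Neither gene passed the test: against resident, SiglecFhi/CD101+ gave a log2 fold change of 0.79 ± 0.78 for Rpl22l1 (edgeR adjusted p = 0.624) and of -0.86 ± 0.59 for Rpl22 (edgeR adjusted p = 0.448). With library totals alone the Rpl22l1 value for both subsets turned from 0.68 to -0.16.

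Rps27l, a paralog of Rps27 and a target of p53, gave 18.5, 18.1, 20.3 and 16.9 counts per 100 Rps27 counts in resident, 17.6 and 10.6 in the Siglec-Fint/CD101- pair and 55.4 and 69.2 in the SiglecFhi/CD101+ pair. Both SiglecFhi/CD101+ ratios lay above the other 6. The numbers behind them were 72 and 27 counts of Rps27l and 130 and 39 counts of Rps27. Rps27l itself was at 15.97, 26.2, 18.1 and 19.0 CPM in resident and 38.0 and 16.4 in the SiglecFhi/CD101+ pair, which overlapped (log2 fold change 0.46 ± 1.04, edgeR adjusted p = 0.866), and without SiglecFhi/CD101+ 1 the value was -0.36. Rps27 had a log2 fold change of -1.23 ± 0.68 (edgeR adjusted p = 0.351). The difference in ratio was not tested for either pair of genes.

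Rpl7l1, a paralog of Rpl7, was the only member with counts that had none in a whole group. Such zeros were common: 2751 of all 11828 genes tested had no counts in the resident or the Siglec-Fint/CD101- group, against 1 of 77 members. Rpl7l1 had 42, 199, 73 and 213 counts in resident 3 to 6, 0 in both Siglec-Fint/CD101- libraries and 3 and 31 in SiglecFhi/CD101+ 1 and 2. Set against a floor of 3 counts over the 2 Siglec-Fint/CD101- libraries, its level was at least 10.9-fold lower there than in resident and at least 9.60-fold lower than in the SiglecFhi/CD101+ pair, where 31 of the 34 counts come from library 2 and library 1 is at the floor itself. edgeR gave adjusted p-values of 0.288 and 0.239. DESeq2 gave 0.0314 and 0.0204, with ranges of 0.0314 to 0.530 and 0.0204 to 0.859 over the alternatives. Rpl7, its abundant relative, had 246, 352, 232 and 267 CPM in resident, 156 and 163 in the Siglec-Fint/CD101- pair and 159.9 and 159.0 in the SiglecFhi/CD101+ pair. Those 4 subset values were below every resident one under each of the scalings tried, though its log2 fold change for both subsets of -0.78 ± 0.37 did not pass (edgeR adjusted p = 0.221).

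Grouped by place in the ribosome, no set held a called member. The 3 stalk genes Rplp0, Rplp1 and Rplp2 had log2 fold changes of -0.73, -0.83 and -1.54 for SiglecFhi/CD101+ and of 0.10, 0.12 and 0.22 for Siglec-Fint/CD101- against resident. Rplp1 stayed at 74.4 to 98.4 counts per 100 counts of Rplp0 in all 8 libraries, while Rplp2 ranged from 24.4 to 86.6 per 100 counts of Rplp1. Rpl5 and Rpl11, which bind 5S ribosomal RNA and, when unassembled, inhibit Mdm2, had -0.72 and -0.87 for SiglecFhi/CD101+ and -0.62 and -0.37 for Siglec-Fint/CD101-. The 7 genes at the rim of the exit tunnel had medians of -0.80 and -0.03. The 9 genes along the mRNA path and decoding site had medians of -0.64 and 0.10. Rps6, the classic substrate of S6 kinase, had log2 fold changes of -1.04 and -0.07. The 4 X-linked members Rpl10, Rpl36a, Rpl39 and Rps4x had medians of -0.72 and -0.13, next to -0.71 and -0.06 over all members. Rps4x stood at 279, 377, 209.5 and 359 CPM in resident, 313 and 198 in the Siglec-Fint/CD101- pair and 212 and 181 in the SiglecFhi/CD101+ pair, with overlapping groups. Rps3a1, a small-subunit protein near the mRNA exit, had 340.1, 621, 443 and 486 CPM in resident, 323 and 365 in the Siglec-Fint/CD101- pair and 466 and 293 in the SiglecFhi/CD101+ pair. Rpl3, which lies next to the peptidyl transferase centre, had 542, 495, 449.5 and 685 CPM in resident, 709 and 456 in the Siglec-Fint/CD101- pair and 314 and 232 in the SiglecFhi/CD101+ pair (log2 fold change for the latter -0.99 ± 0.41, edgeR adjusted p = 0.257).

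Listed at 0 in all 8 libraries were 6 members. Rpl3l, Rpl10l and Rpl39l are paralogs with expression known mainly in muscle or testis, and 0 counts allow at most 3 counts, or 0.0548 CPM over the 8 libraries (counting error only). Rpl13, Rpl24 and Rps10 are core proteins of every ribosome, so their 0 cannot be read as a level. Annotated exons of Rpl24 overlap those of Gm28037 on the same strand over 47% of their length, and those of Rps10 overlap the readthrough gene RPS10-NUDT3 over 20.6%. Gm28037 held 165 counts and RPS10-NUDT3 none. Annotated exons of Rpl13 overlap only a small nucleolar RNA and a microRNA gene on its strand. Counting 50-base words in the last 300 coding bases, 100% of those of Rpl13, 98.8% of those of Rpl24 and 86.5% of those of Rps10 also occurred in transcripts of 13, 9 and 3 other genes.

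Near-identical copies limit what a count of a single member means. Of the 50-base words in the last 300 bases of each member's coding sequence, a median of 95.2% also occurred in the annotated transcripts of other genes. All words were shared in 37 members, and none in 3. Rpl4, with 5.58% of its words shared, was among the abundant members that copies touched least. Rpl10 shared all of its words with 14 genes and stood at 16.8, 39.2, 15.2 and 28.1 CPM in resident libraries. The 294 named pseudogenes in the tables added 0.161 to 0.228 counts per 100 member counts, and the groups overlapped. How reads that fit several places were counted is not given in the sources used here.

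Genes that work with ribosomal proteins gave no call either: in each of the lists below edgeR called 0 genes in the 4 comparisons, where 0.00845 to 0.0592% of all genes tested were called. Of the ribosomal proteins with other names 5 of 6 were tested, with medians of -0.61 for SiglecFhi/CD101+ and -0.03 for Siglec-Fint/CD101- against resident, near those of the members. Rack1, a scaffold for signalling kinases on the small subunit, averaged 335 ± 53.3 CPM (SD, n = 4) in resident, 306 ± 27.9 (n = 2) in the Siglec-Fint/CD101- pair and 161 ± 16.3 (n = 2) in the SiglecFhi/CD101+ pair. Its log2 fold change for the last group was -1.06 ± 0.44 (edgeR adjusted p = 0.258). Fau, made as a fusion of a ubiquitin-like protein with eS30, averaged 1251, 1226 and 822 CPM in the same order.

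A list of 18 translation factors and other genes with TOP mRNAs, all tested, had medians of -0.40 for SiglecFhi/CD101+ and -0.37 for Siglec-Fint/CD101- against resident, so the first lay nearer 0 and the second farther from 0 than the members' -0.71 and -0.06. Vim, the intermediate filament gene that has a TOP-like start, averaged 287 ± 72.9 CPM in resident, 182 ± 46.2 in the Siglec-Fint/CD101- pair and 136 ± 43.4 in the SiglecFhi/CD101+ pair (log2 fold change for the latter -1.07 ± 0.50, edgeR adjusted p = 0.296). Pabpc1, the poly(A)-binding protein, averaged 230.2 ± 82.5, 101 ± 25.5 and 187 ± 80.1 CPM, with a log2 fold change of -1.19 ± 0.57 for Siglec-Fint/CD101- (edgeR adjusted p = 0.323). The 14 genes of the mTORC1 pathway had medians of -0.96 and -0.10. Tsc2, a brake on mTORC1, had 872 counts in resident, 40 in the Siglec-Fint/CD101- pair and 3 in the SiglecFhi/CD101+ pair. Pooled over each group this was 18.1, 13.3 and 0.847 CPM, with 35 of the 40 counts in Siglec-Fint/CD101- 1. Mtor had 166, 18 and 0 counts, or 3.44, 6.00 and 0 CPM pooled over each group. In the SiglecFhi/CD101+ pair Mtor was thus under the resident level by at least 4.07-fold. In the Siglec-Fint/CD101- pair it was not lower, and all 18 counts came from library 2.

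Ribosome assembly and the mitochondrial ribosome were less evenly represented. Of 35 biogenesis genes 33 were tested, with medians of -0.70 for SiglecFhi/CD101+ and -1.30 for Siglec-Fint/CD101- against resident (-1.16 for the latter with genes at 0 in a group set at 3 counts), and a smallest adjusted p of 0.106 in edgeR's comparison of both subsets with resident. Polr1a, the largest subunit of RNA polymerase I, had 570 counts in resident, 2 in the Siglec-Fint/CD101- pair and 0 in the SiglecFhi/CD101+ pair. Pooled over each group this was 11.8, 0.667 and 0 CPM, at least 14.0-fold lower in the last than in resident. Nop2, a methyltransferase of 28S ribosomal RNA, had 485, 0 and 55 counts, or 10.05, 0 and 15.5 CPM pooled over each group. It was at least 10.1-fold lower in Siglec-Fint/CD101- than in resident libraries. In the SiglecFhi/CD101+ pair it was not lower (log2 fold change 0.61 ± 1.34, edgeR adjusted p = 0.861). Of 78 mitochondrial ribosomal protein genes 73 were tested, with medians of -0.83 and -0.50, a distance between quartiles of 5.32 for SiglecFhi/CD101+ against 0.41 for the cytosolic members, and a smallest edgeR adjusted p of 0.100 over the 4 comparisons. Mrpl14 had 1731 counts in resident, 18 in the Siglec-Fint/CD101- pair, all in library 2, and 0 in the SiglecFhi/CD101+ pair. Pooled over each group this was 35.9, 6.00 and 0 CPM, at least 42.4-fold lower in the last. Mrpl36 was higher in the Siglec-Fint/CD101- pair, at 61.7 CPM pooled against 16.9 in resident and 0.282 in the SiglecFhi/CD101+ pair. Its log2 fold change for Siglec-Fint/CD101- against resident was 2.01 ± 1.03 (edgeR adjusted p = 0.335). Mrpl37 had 759 counts in resident and 0 in both subsets, at least 15.7-fold and 18.6-fold lower. These genes are scarce in all groups beside most cytosolic members, which limits the precision of each fold. Of the 75 ribosomal protein pseudogenes with counts 4 were tested, with medians of -1.39 and -0.58.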

How the data were processed

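The 8 CEL-Seq libraries, run on an Illumina NextSeq 550 per the labels' protocols, were deposited by the authors as raw counts per Ensembl gene, not normalized. FastQC 0.11.5, Trim Galore, cutadapt 1.10, TopHat2 2.1.0, Bowtie2 2.2.6, HTSeq 0.6.1 and DESeq2 1.28.0 are named in the submitters' processing notes. The sources used here do not give the genome build, annotation, strand setting or use of molecular identifiers, so counts may include PCR copies, and intervals and floors cover counting error only.

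Symbols came from GENCODE M21 (54409 of 54446 identifiers matched) and promoter sequences from RefSeq on GRCm38.p6. edgeR 4.0.16 (R 4.3.3) fitted its robust quasi-likelihood model to all 8 libraries with TMM factors and 1 mean per group, after its filterByExpr filter left 11828 genes. P-values were Benjamini-Hochberg adjusted over these genes and called at 0.05. Levels are counts per 1000000 (CPM). Correlations used log2 of CPM plus 0.5. DESeq2 1.42.0 and limma 3.58.1 (voom), other scalings, filters and left-out libraries served as alternatives. Figures and summaries used Python 3.11.15.

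Named were the members with the smallest p per comparison and direction (2 each), the 5 highest of each subunit, paralogs with their parents, members at 0 counts and up to 2 genes of each other list. The members and lists were chosen with earlier results of these data known, and Rpl13a, Rpl14, the role groups and the genes named in them were picked after their values were seen. Same-numbered subset libraries did not deviate together over 11828 genes (r = 0.0066), though r was 0.288 over the 77 members, and no label ties a number to an animal or day, so replicate numbers were not taken as pairs. Some members are not reported by name here and remain in all counts and medians.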

Additional observations from a re-analysis of the deposited data

How the results depend on the processing

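No member was called under any left-out library, filter, limma-voom or other scaling, except that library totals alone called 2 members lower for both subsets against resident (Rpl23a and Rps27a, 2 of 77 beside 773 of all 11828 genes) and DESeq2 called 1 (Rpl7l1) in each of the 2 comparisons with Siglec-Fint/CD101- alone. Scaling moved the members' median log2 fold change. With RLE factors it was -0.25 for SiglecFhi/CD101+, 0.32 for Siglec-Fint/CD101- and 0.012 for both subsets against resident, and DESeq2 gave -0.25, 0.32 and 0.012. With library totals alone it was -1.40, -0.87 and -1.20. The distance to the median of all genes moved less, from -0.07 to 0.06 for SiglecFhi/CD101+ and from 0.81 to 1.08 for Siglec-Fint/CD101- over 5 scalings, but leaving out 1 library gave -0.20 to 2.15 and 0.58 to 4.55, and it was 0.24 and 1.39 with no filter. Leaving out 1 library at a time gave the members' median as -0.998 to -0.45 for SiglecFhi/CD101+ against resident (lowest without SiglecFhi/CD101+ 1, highest without resident 4), -0.68 to -0.22 for both subsets against resident (lowest without Siglec-Fint/CD101- 1, highest without resident 4), -0.43 to 0.12 for Siglec-Fint/CD101- against resident and -0.95 to -0.42 for SiglecFhi/CD101+ against Siglec-Fint/CD101-. Over counts outside the mitochondrial genome the members' shares were 10.8, 11.5 and 8.44% in resident, Siglec-Fint/CD101- and SiglecFhi/CD101+ libraries.

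For the count of members lower in both SiglecFhi/CD101+ libraries than in every resident one, alternatives were chosen after seeing the data. The count was 13 with RLE factors and 33 with upper-quartile factors. It was 52 to 72 with 1 resident or SiglecFhi/CD101+ library left out at unchanged CPM. Leaving out a library in this way can only keep or raise the count, so that range does not test it. Library totals alone reversed Rps27l (-0.37 for SiglecFhi/CD101+ and -0.71 for both subsets), Rpsa (-0.13), Rps14 (-0.43) and Rpl22l1 (-0.16). Single libraries reversed Rpsa (range -0.15 to 1.07), Rpl22l1 for both subsets (-0.11 to 0.95) and Rps27l (-0.36 to 0.84 for SiglecFhi/CD101+ against resident, -0.061 to 1.24 against Siglec-Fint/CD101-, -0.33 to 0.33 for both subsets). The cause was not tested. With the replicate number as a block on the 4 subset libraries 0 members were called, and the median was -0.48. Of 302 alternative values of named members 291 kept their direction. Some of these settings could hardly reverse one: the fit without robust estimation left the members' medians unchanged. Of 176 alternative values of the main results (calls, medians, shares and the count above) 156 stayed within limits. For medians the limit was a move under 0.327, the SD between replicates of the members' median log2 CPM. For shares it was a move under the SD of the group's libraries, which leaving out 1 library cannot exceed. The 156 thus include values that could not leave their limits, among them the unchanged medians of the fit without robust estimation. With 444902 to 552121 counts outside mitochondrial genes per subset library, members of low count rest on few counts, such as the 3 of Rpl7l1 in SiglecFhi/CD101+ 1. Whether depth bears on the lack of calls was not tested.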
